A study of Homo sapiens with 39 samples.

Results

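The NF-kB subunits and feedback inhibitors are 10 genes, taken as the rows of the table of raw counts whose Ensembl IDs carry the listed symbols, of 15808 genes in the table. They comprise the 5 subunits NFKB1, NFKB2, REL, RELA and RELB, the 3 cytoplasmic inhibitors NFKBIA, NFKBIE and TNFAIP3, and the 2 nuclear IkB proteins NFKBIZ and BCL3. All 10 were present and all 10 passed the filter on low counts, which left 13212 genes tested. RNA-seq was done after 6 h in 4 established human B cell lymphoma lines. OCILy10 and TMD8 are known as lines of the activated B cell type of diffuse large B cell lymphoma, and DOHH2 and Toledo as lines of the germinal centre type. The labels do not give these types. Each line was treated with NEO2734, with OTX015 or with the vehicle DMSO, in 3 libraries per group, and OCILy10 had 3 further libraries with CB103. NEO2734 is known to block the bromodomains of BET proteins and of the acetyltransferases CBP and p300, OTX015 to block those of BET proteins alone, and CB103 to block transcription driven by Notch. The labels give no doses, and nothing in them says that the libraries of one group were separate cultures. The p-values below therefore measure the spread between libraries, which may be technical. Each line is 1 cell line and stands for itself.

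NF-kB factors are dimers of the 5 subunits, and RELA, REL and RELB carry the domains that activate transcription. In resting cells the IkB inhibitors, here NFKBIA and NFKBIE, hold the dimers in the cytoplasm. Signals from the B cell receptor, CD40 or Toll-like receptors free the dimers by having an IkB kinase mark the IkB inhibitor for destruction. The dimers then bind kB sites and switch on, among others, the genes of their own inhibitors, a negative feedback. Constant activity of this pathway is a known feature of diffuse large B cell lymphoma of the activated type.

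On GRCh38 with the GENCODE 29 annotation, the subunit genes lie at chr4:102501329-102617302 (NFKB1, ENSG00000109320.10, plus strand), chr10:102394110-102402529 (NFKB2, ENSG00000077150.16, plus strand), chr2:60881521-60931610 (REL, ENSG00000162924.12, plus strand), chr11:65653596-65663094 (RELA, ENSG00000173039.17, minus strand) and chr19:45001430-45038198 (RELB, ENSG00000104856.12, plus strand). The inhibitor genes lie at chr14:35401511-35404749 (NFKBIA, ENSG00000100906.9, minus strand), chr6:44258166-44265788 (NFKBIE, ENSG00000146232.13, minus strand) and chr6:137867188-137883312 (TNFAIP3, ENSG00000118503.13, plus strand). The nuclear IkB genes lie at chr3:101827991-101861022 (NFKBIZ, ENSG00000144802.10, plus strand) and chr19:44747705-44760044 (BCL3, ENSG00000069399.11, plus strand). The exons of REL share 5702 bases with a noncoding gene on the same strand, and those of TNFAIP3 share 95 bases with an antisense gene that is also in the count table. Strandedness is not given in the sources used here, so reads of TNFAIP3 and of its antisense partner cannot be told apart within those 95 of the 5051 exonic bases of TNFAIP3.

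Promoter sequences are shown because the letters that NF-kB dimers are known to bind recur in the members' own promoters. RefSeq promoters on GRCh38.p14, each from 250 bases before to 50 bases after its own RefSeq start, were searched on both strands for the kB consensus motif. The motif has 10 letters and may overlap itself on the other strand. Of the 8 member genes with a promoter entry, 7 (87.5%) held it in at least 1 promoter, against 7.09% of 27305 genes. RELB and NFKBIE had no entry. Counted by promoter, 9 of the 13 member promoters (69.2%) held it, against 5.91% of 35116 promoters. No match was found in these windows for RELA. A match is a description of letters and was not tested as a binding site. Each line below gives 30 bases 5′ to 3′ in the direction of the gene, with 1 match in capitals.
NFKB1, chr4:102501300-102501329, plus strand: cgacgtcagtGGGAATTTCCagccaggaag
NFKB2, chr10:102395674-102395703, plus strand: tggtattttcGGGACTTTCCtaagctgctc
REL, chr2:60881517-60881546, plus strand: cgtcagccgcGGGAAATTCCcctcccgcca
NFKBIA, chr14:35404811-35404840, minus strand: tgactggcttGGAAATTCCCcgagcctgac
TNFAIP3, chr6:137867182-137867211, plus strand: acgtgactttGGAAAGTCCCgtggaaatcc
NFKBIZ, chr3:101827757-101827786, plus strand: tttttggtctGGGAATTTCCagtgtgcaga
BCL3, chr19:44748700-44748729, plus strand: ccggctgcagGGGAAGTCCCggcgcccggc
The match began 81 bases before the RefSeq start of the promoter in NFKBIA, 67 before in TNFAIP3, 49 before in NFKB1, 47 before in REL, 21 before in NFKB2, 223 before in NFKBIZ and 3 after in BCL3. These starts can differ from the GENCODE coordinates above. In NFKB2, REL, TNFAIP3 and BCL3 the match shown lies after the GENCODE start of the gene. NFKB2 held 5 matches in 2 of its 3 promoters. The promoter of NFKBIA, whose match is the one in capitals and which had the highest level per exon length of the members, is given whole.
NFKBIA promoter, chr14:35404700-35404999, minus strand: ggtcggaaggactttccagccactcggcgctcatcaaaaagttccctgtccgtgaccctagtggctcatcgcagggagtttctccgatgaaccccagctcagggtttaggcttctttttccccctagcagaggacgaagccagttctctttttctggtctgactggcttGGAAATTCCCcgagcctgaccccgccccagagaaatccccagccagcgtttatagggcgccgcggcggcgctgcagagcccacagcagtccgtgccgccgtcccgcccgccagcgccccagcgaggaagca

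Library totals ranged from 1000281 to 11668542 counts in 39 libraries. They formed 15 deep libraries of at least 6670250 counts and 24 shallow ones of at most 3420458 counts. Each of the 13 groups had 1 deep library, and OCILy10 NEO2734 and OCILy10 DMSO had 1 more each. Genes private to 1 line showed 3 libraries that held RNA of another line. In Toledo DMSO replicate 2 the OCILy10 genes stood at a median of 68.5% of their level in OCILy10 and the Toledo genes at 37.4% of theirs. In OCILy10 CB103 replicate 2 the Toledo genes stood at 25.5%, and in DOHH2 NEO2734 replicate 3 the OCILy10 genes stood at 8.98%. In the other 36 libraries the genes of other lines stood at 2.44% or less. The genes were chosen as low in other lines within those same 36 libraries, so this value does not test whether they are pure. Toledo DMSO replicate 2 is left out throughout, which leaves 38 libraries and 2 vehicle libraries of Toledo. B cell markers summed to between 1126 and 5074 CPM (counts scaled to library size) in every library kept, and the 2 monocyte markers in the table to at most 4.89 CPM. Of 6 fixed T cell markers, CD3D, CD3E, CD3G and CD8A matched no row of the count table. The 2 T cell markers in the table, CD2 and TRAC, summed to at most 1.88 CPM in DOHH2, TMD8 and Toledo. In OCILy10 they summed to 2.11 to 5.93 CPM with NEO2734, 3.76 to 8.58 CPM with OTX015 and 26.0 to 57.75 CPM with CB103, against 24.75 to 79.4 CPM with DMSO, and neither was at 0. Of 8 fixed markers of the activated type, 7 had higher vehicle means in both OCILy10 and TMD8 than in both DOHH2 and Toledo. Of 7 germinal centre markers measured, 3 were higher in both DOHH2 and Toledo and 2 were higher in both OCILy10 and TMD8. BCL6, the germinal centre repressor, averaged 65.9 CPM in OCILy10 and 24.2 CPM in TMD8, against 0 in DOHH2 and 1.97 CPM in Toledo.

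Depth moved with the level of 4 members, and so with the spread within every group. In a fit with a term for deep libraries, shallow libraries had 4.185-fold the NFKBIA level of deep ones, 2.99-fold the NFKB2 level, 2.24-fold the BCL3 level and 1.70-fold the REL level (edgeR quasi-likelihood test, adjusted p = 9.21e-11, 2.97e-08, 5.43e-06 and 0.00069). The other 6 members did not pass the threshold, at 0.94-fold for NFKBIE to 1.22-fold for RELB. Depth was called for 63.7% of the 13212 genes. What else differs between deep and shallow libraries was not tested. Every group holds both kinds, but not in the same proportion in all groups of OCILy10 and of Toledo. Comparisons between groups are given over all libraries and, where the call changes, with depth in the fit.

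In the vehicle libraries, 4 of the 10 members were higher in the activated type lines OCILy10 and TMD8 than in the germinal centre type lines DOHH2 and Toledo, and 0 were lower. These were REL, the subunit amplified in some lymphomas, the inhibitor NFKBIE and both nuclear IkB genes, NFKBIZ and BCL3. In that comparison 33.6% of all genes tested were called, so the share of members lies close to the background. By DESeq2 the same count was 4.

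NFKBIZ, which encodes a nuclear IkB protein that acts as a coactivator on a subset of kB-driven genes, had 268, 202 and 344 CPM in OCILy10 and 309, 216 and 462 CPM in TMD8. It had 74.4, 136 and 153 CPM in DOHH2 and 15.9 and 15.3 CPM in Toledo. All 6 libraries of the activated type lines lay above all 5 of the germinal centre type lines, and within the last pair Toledo lay far below DOHH2. This gave a log2 fold change of 2.78 ± 0.36 (SE, adjusted p = 7.27e-07), a 6.86-fold difference. OCILy10 and TMD8 overlapped each other.

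BCL3, a nuclear partner of p50 and p52 dimers, had 38.8, 54.2 and 53.4 CPM in OCILy10 and 62.6, 73.1 and 146 CPM in TMD8. It had 5.11, 14.8 and 18.7 CPM in DOHH2 and 3.16 and 7.145 CPM in Toledo. The groups of lines did not overlap, every TMD8 library lay above every OCILy10 library, and DOHH2 and Toledo overlapped. The difference between types was 3.17 ± 0.60 on the log2 scale (adjusted p = 0.000119).

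REL, which encodes c-Rel, had 49.5, 78.5 and 105 CPM in OCILy10 and 54.7, 89.6 and 130 CPM in TMD8. It had 11.2, 41.2 and 61.25 CPM in DOHH2 and 16.3 and 22.5 CPM in Toledo. The lowest libraries of OCILy10 and TMD8 lay below the highest of DOHH2, so the types overlapped, and Toledo lay within the range of DOHH2. The log2 fold change was 1.665 ± 0.44 (adjusted p = 0.0037).

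NFKBIE, which encodes the inhibitor IkB epsilon, had 121, 117 and 72.9 CPM in OCILy10 and 54.8, 42.3 and 57.9 CPM in TMD8. It had 29.8, 92.3 and 82.5 CPM in DOHH2 and 12.6 and 10.2 CPM in Toledo. DOHH2 overlapped both activated type lines, and only the Toledo libraries lay below every other vehicle library. Between types it gave a log2 fold change of 1.38 ± 0.36 (adjusted p = 0.00315). With Toledo DMSO replicate 2 kept, which held OCILy10 RNA, it was 0.59 and no longer called (adjusted p = 0.292). The values of REL, NFKBIZ and BCL3 were then smaller too, at 1.26, 1.89 and 2.065, and stayed called.

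**Figure D1:**
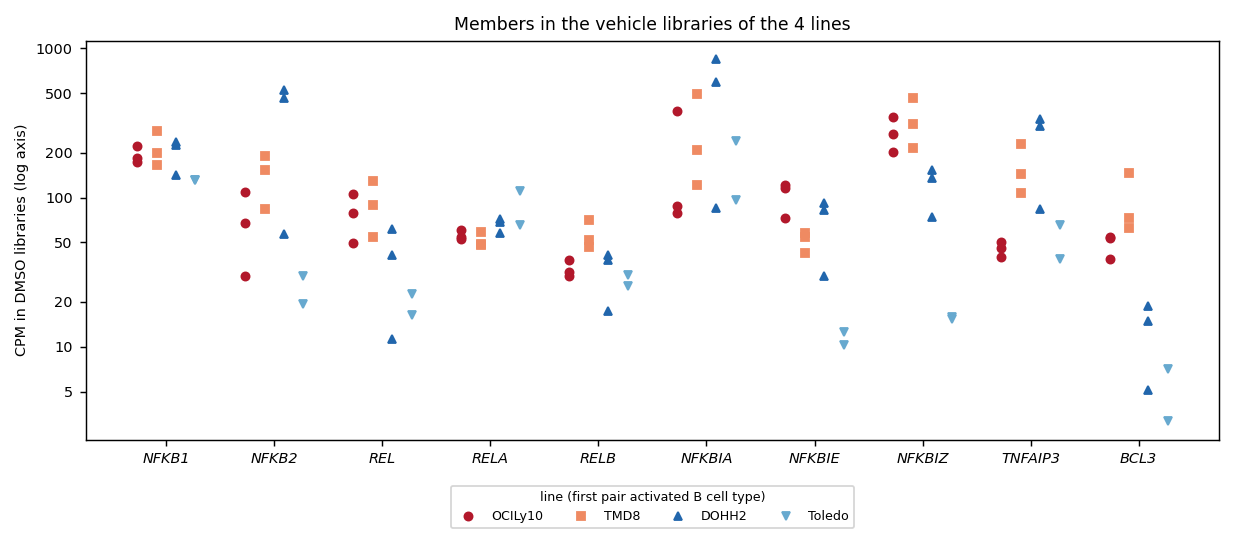
Each point is 1 DMSO library, with its level in CPM on a log axis, for the 10 members in OCILy10 and TMD8 (activated type) and in DOHH2 and Toledo (germinal centre type). For NFKBIZ the 6 libraries of OCILy10 and TMD8 lie above 200 CPM and the 2 of Toledo near 15 CPM, while for NFKB2, NFKBIA and TNFAIP3 DOHH2 holds the highest points.

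The remaining 6 members did not separate the types. NFKBIA, which encodes IkB alpha, averaged 183 ± 172 CPM in OCILy10 and 275 ± 195 CPM in TMD8, against 511 ± 390 CPM in DOHH2 (SD, n = 3 each) and 167 ± 101 CPM in Toledo (SD, n = 2). All 4 lines overlapped, and the log2 fold change was -0.38 ± 0.71 (adjusted p = 0.764). NFKB2, the precursor p100 of the noncanonical pathway, averaged 68.3 ± 39.4 CPM in OCILy10 and 142 ± 54.7 CPM in TMD8, against 347 ± 253 CPM in DOHH2 and 24.5 ± 7.20 CPM in Toledo. The last 2 lines thus stood at the ends of the order, and the log2 fold change between types was 0.11 ± 0.60 (adjusted p = 0.942). TNFAIP3, which encodes the deubiquitinase A20, averaged 45.4 ± 5.21 CPM in OCILy10 and 160.2 ± 63.25 CPM in TMD8, against 240.3 ± 137 CPM in DOHH2 and 52.3 ± 19.1 CPM in Toledo. OCILy10 and Toledo overlapped, as did TMD8 and DOHH2.

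NFKB1, the precursor of p50, had close levels in OCILy10, TMD8 and DOHH2, at 193 ± 25.4 CPM in OCILy10 and 215 ± 59.1 CPM in TMD8, against 200 ± 50.9 CPM in DOHH2 and 131 ± 1.06 CPM in Toledo. RELA, the activating subunit p65, averaged 55.95 ± 4.29 CPM in OCILy10 and 51.9 ± 5.99 CPM in TMD8, against 65.9 ± 7.01 CPM in DOHH2 and 88.4 ± 32.4 CPM in Toledo. Its log2 fold change between types was -0.50 ± 0.21, with an unadjusted p of 0.0279 and an adjusted p of 0.0759. RELB, the activating partner of p52, averaged 33.2 ± 4.18 CPM in OCILy10 and 56.4 ± 12.3 CPM in TMD8, against 32.2 ± 13.1 CPM in DOHH2 and 28.0 ± 3.50 CPM in Toledo. A fit with depth as a term called the same 4 members, against 46.7% of genes. A depth term within each line, an alternative added after the values were seen, called 7 members against 48% of genes: NFKB1 at 0.33 (adjusted p = 0.0389) and RELB at 0.56 (adjusted p = 0.0387) were also higher in OCILy10 and TMD8, and RELA at -0.52 (adjusted p = 0.02) lower. The replicate block also called NFKB1 at 0.33 (adjusted p = 0.0224) and RELB at 0.67 (adjusted p = 0.00855) as higher, against 41.2% of genes.

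Per kilobase of annotated exon, NFKBIA had the highest vehicle mean of the 10 members in every line, at 77.1 in OCILy10 and 116 in TMD8, against 215.5 in DOHH2 and 70.5 in Toledo, in CPM per kilobase. REL was the lowest member in OCILy10, TMD8 and DOHH2, at 5.89, 6.93 and 2.88 CPM per kilobase. In Toledo REL at 1.47, BCL3 at 1.59 and NFKBIZ at 2.65 CPM per kilobase were the lowest. The annotated exons of REL sum to 13170 bases, of which 5702 are shared with a noncoding gene on the same strand. The part of this overlap in the rank of REL was not tested. NFKBIZ came second in OCILy10 and TMD8, at 46.0 and 55.7 CPM per kilobase.

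With NEO2734, 0 of the 10 members were called for the mean of the 4 lines, where 18.7% of all genes were. At an unadjusted p under 0.05 there was 1, REL, and DESeq2 also called 0. With OTX015, 0 of 10 were called against 9.64% of genes, again with REL as the 1 member at an unadjusted p under 0.05 and 0 by DESeq2. Between NEO2734 and OTX015, at doses the labels do not give, 0 of 10 were called against 0.0378% of genes, and 0 had an unadjusted p under 0.05. The intervals on these differences were narrow for some members and wide for others: the 95% interval of the NEO2734 minus OTX015 log2 difference was -0.29 to 0.27 for NFKB1, -0.36 to 0.22 for RELA, -0.57 to 0.55 for REL and -0.95 to 0.99 for NFKBIA. Contrasts of the 2 compounds share the same vehicle libraries.

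REL had a higher mean with both compounds than with DMSO in all 4 lines, with the smallest difference in TMD8. In OCILy10 it had 118, 151 and 189.7 CPM with NEO2734 and 115, 139.9 and 167 CPM with OTX015, against 49.5, 78.5 and 105 CPM with DMSO. Every library of both compounds lay above every vehicle library. The sum of CD2 and TRAC moved the other way in these libraries, while CD3D, CD3E, CD3G and CD8A had no row in the table. The part of that sum in the OCILy10 values of REL and of NFKB1 below was not tested. The log2 fold change was 0.98 ± 0.54 with NEO2734 (adjusted p = 0.51) and 0.86 ± 0.54 with OTX015 (adjusted p = 0.748), neither passing the threshold. With depth as a term within each line, NEO2734 gave 1.00 ± 0.24 (adjusted p = 0.0067), the only member called in OCILy10 against 12.7% of genes, and OTX015 gave 0.74 ± 0.25 (adjusted p = 0.086). With the replicate block, whose pairing is not shown in OCILy10, REL was the only member called with NEO2734, against 7.34% of genes, and with OTX015, against 3.38%.

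In Toledo REL had 25.7, 30.3 and 29.8 CPM with NEO2734 and 32.3, 31.9 and 25.1 CPM with OTX015, against 16.3 and 22.5 CPM with DMSO. The groups did not overlap for either compound, with log2 fold changes of 0.60 ± 0.66 and 0.66 ± 0.66 (adjusted p = 0.933 and 0.908). In DOHH2 it had 15.98, 89.2 and 85.8 CPM with NEO2734 and 18.8, 77.3 and 109 CPM with OTX015, against 11.2, 41.2 and 61.25 CPM with DMSO. There the deep library of each group was the low one, and deep and shallow libraries each ran higher with both compounds. In TMD8 REL had 80.7, 77.5 and 122 CPM with NEO2734 and 67.6, 84.2 and 128 CPM with OTX015, against 54.7, 89.6 and 129.6 CPM with DMSO, and the groups overlapped throughout. For the mean of the lines the log2 fold change was 0.60 ± 0.29 with NEO2734 (adjusted p = 0.165) and 0.60 ± 0.29 with OTX015 (adjusted p = 0.219). In the fit with a depth term it was 0.60 ± 0.23 with NEO2734 (adjusted p = 0.0457) and 0.54 ± 0.23 with OTX015 (adjusted p = 0.0998).

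**Figure D2:**
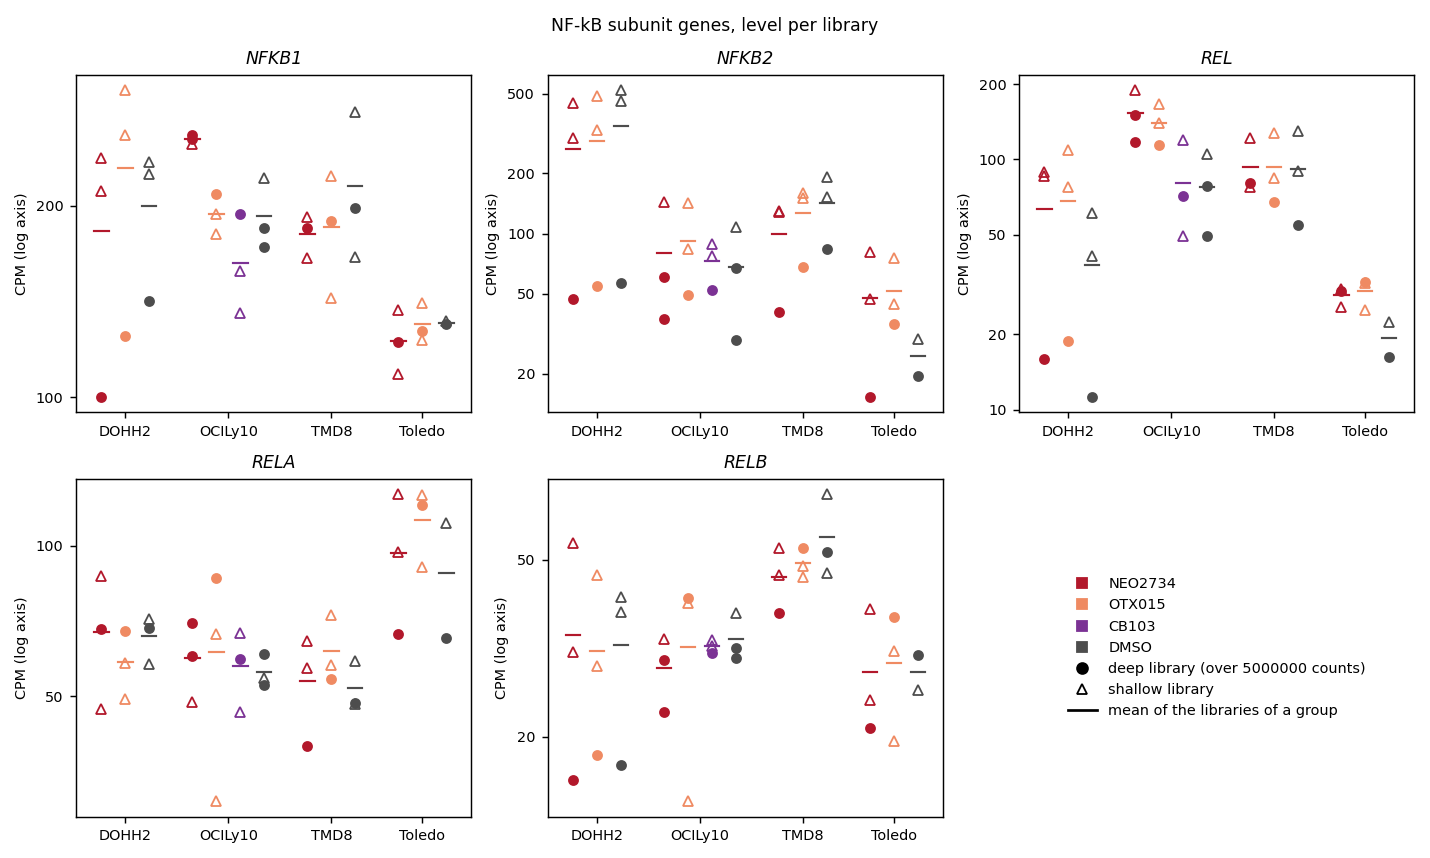
Level of the 5 subunit genes in each library, in CPM on a log axis, by line and treatment, with deep libraries filled, shallow ones open and a bar at the mean of each group. In the REL panel the OCILy10 libraries with NEO2734 (118 to 189.7 CPM) and OTX015 (115 to 167 CPM) all lie above those with DMSO (49.5 to 105 CPM), while in TMD8 the groups overlap.

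The other subunits differed less between treatments or overlapped. NFKB1 in OCILy10 had 258, 255 and 250.2 CPM with NEO2734 and 209, 194 and 181 CPM with OTX015, against 185, 172 and 221 CPM with DMSO. The NEO2734 libraries lay above all vehicle libraries and the OTX015 libraries among them, with log2 fold changes of 0.40 ± 0.27 (adjusted p = 0.666) and 0.02 ± 0.27. For the mean of the lines the log2 fold change of NFKB1 was -0.02 with NEO2734, with a 95% interval of -0.31 to 0.27, and 0.00 with OTX015, with an interval of -0.29 to 0.29. RELA gave 0.08 (interval -0.22 to 0.38) with NEO2734 and 0.15 (-0.16 to 0.45) with OTX015. RELB gave -0.12 (-0.53 to 0.30) and -0.05 (-0.47 to 0.36) with the same compounds. NFKB2, which varied with depth, had wider intervals, -0.76 to 0.91 with NEO2734 and -0.56 to 1.12 with OTX015. In Toledo NFKB2 had 35.2, 75.6 and 44.7 CPM with OTX015 and 81.0, 47.2 and 15.3 CPM with NEO2734, against 19.4 and 29.6 CPM with DMSO. Only the OTX015 libraries lay all above the vehicle libraries, and the call was not reached (1.11 ± 0.95, adjusted p = 0.884).

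NFKBIA had its highest levels in DOHH2. In DOHH2 it had 232, 2648 and 2661 CPM with NEO2734 and 167, 2060 and 2986 CPM with OTX015, against 84.9, 599 and 849.7 CPM with DMSO. The first library of each group was the deep one and lay about an order of magnitude below the others, so the ranges overlapped. Within the deep libraries NEO2734 was 2.73-fold and OTX015 1.96-fold the vehicle level, with 1 library each. Within the shallow ones, with 2 libraries each, NEO2734 was 3.66-fold and OTX015 3.48-fold the vehicle level. Over all libraries the log2 fold change was 1.86 ± 0.98 with NEO2734 (adjusted p = 0.363) and 1.77 ± 0.97 with OTX015 (adjusted p = 0.699).

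In DOHH2 0 of 10 members were called with NEO2734, against 3.86% of genes, with 1 at an unadjusted p under 0.05 (NFKBIZ), and 0 with OTX015, against 0.265% of genes, with 0 at an unadjusted p under 0.05. DESeq2 called 0 in both. With depth as a term NFKBIA was the 1 member called with each compound, at 1.80 ± 0.43 with NEO2734 (adjusted p = 0.00595, against 12% of genes) and 1.67 ± 0.43 with OTX015 (adjusted p = 0.0322, against 2.3% of genes). With the depth term within each line it was again the only one, at 1.72 ± 0.26 (adjusted p = 7.02e-05, against 15.3% of genes) and 1.53 ± 0.26 (adjusted p = 0.00146, against 3.96% of genes). Same-numbered libraries had correlated deviations in DOHH2 and in TMD8, but in both lines replicate 1 was the deep library of every group. Pairing thus cannot be told apart from depth, and the block for replicate number holds the depth difference as well. With that block 3 members rose with NEO2734 in DOHH2, against 10.6% of genes: NFKBIA at 1.74 (adjusted p = 0.0108), NFKBIZ at 0.89 (adjusted p = 0.0262) and REL at 0.70 (adjusted p = 0.0318). With OTX015 it called 1 member, REL at 0.82 (adjusted p = 0.0381), against 2.12% of genes. In the shallow libraries alone NFKBIA was the only member called with NEO2734, at 1.94 (adjusted p = 0.0149), against 4.48% of genes. Without the NEO2734 library that held some OCILy10 RNA the log2 fold change of NFKBIA over all other libraries was 1.49 (adjusted p = 0.677).

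In OCILy10 NFKBIA had 126.5, 155 and 625 CPM with NEO2734 and 94.7, 314 and 509 CPM with OTX015, against 88.1, 79.2 and 382 CPM with DMSO. NEO2734 was 1.68-fold the vehicle level within deep and 1.64-fold within shallow libraries, and OTX015 was 1.13-fold and 1.08-fold. In TMD8 and Toledo the ratios within depth lay between 0.82 and 1.15 for both compounds. The difference between lines was itself tested with an F-test. Over all libraries 0 of 10 members were called for NEO2734 and 0 for OTX015, against 0% of genes for both, and 0 members had an unadjusted p under 0.05 for either. With the depth term within each line, NFKBIA was the 1 member called for NEO2734 (F = 10.4, adjusted p = 0.0213, against 0.81% of genes). For OTX015 it was not called (adjusted p = 0.119), nor was any other member, against 0.106% of genes.

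**Figure D3:**
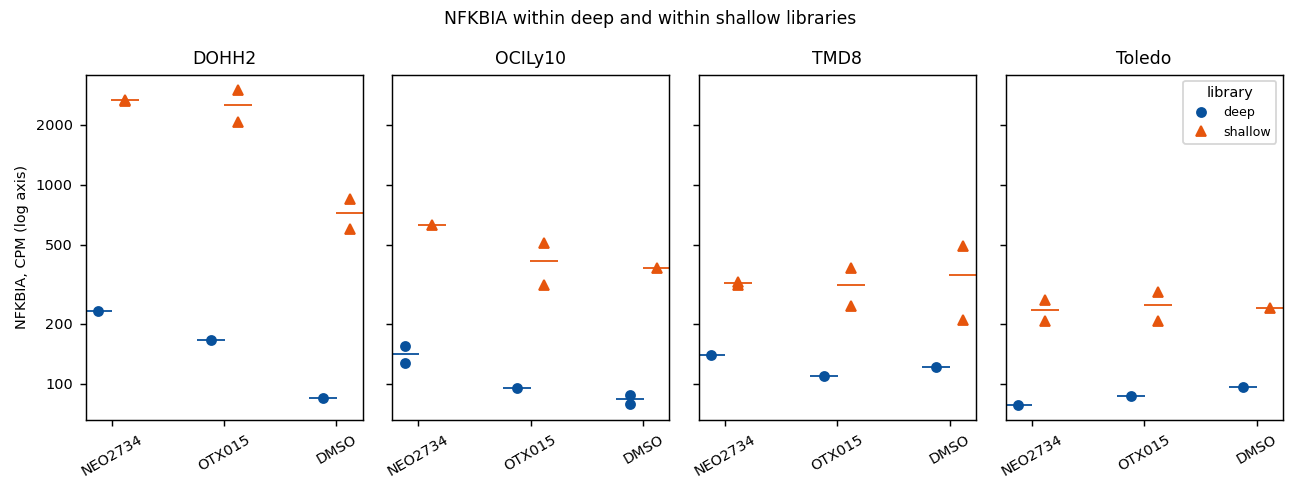
NFKBIA level in each library of the 4 lines, in CPM on a log axis, with deep libraries as blue circles and shallow ones as orange triangles, and a bar at the mean of each kind. In DOHH2 both kinds are higher with NEO2734 and OTX015 than with DMSO (232 and 167 against 84.9 CPM in the deep libraries), while in Toledo the deep libraries lie between 78.5 and 95.8 CPM with all 3 treatments.

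In TMD8 the levels of the inhibitors NFKBIE and TNFAIP3 were lower with both compounds than with DMSO. NFKBIE had 28.2, 31.4 and 19.7 CPM with NEO2734 and 39.4, 35.7 and 34.2 CPM with OTX015, against 54.8, 42.3 and 57.9 CPM with DMSO. Every library of both compounds lay below every vehicle library. The log2 fold change was -0.96 ± 0.46 with NEO2734 (adjusted p = 0.367) and -0.50 ± 0.45 with OTX015. TNFAIP3 had 103, 66.6 and 66.8 CPM with NEO2734 and 101, 68.5 and 78.9 CPM with OTX015, against 144, 107 and 230 CPM with DMSO. Again the groups did not overlap for either compound, with log2 fold changes of -1.01 ± 0.51 (adjusted p = 0.413) and -0.95 ± 0.51 (adjusted p = 0.738).

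In TMD8 0 of 10 members were called with NEO2734, against 2.82% of genes, with 1 at an unadjusted p under 0.05 (NFKBIE), and 0 with OTX015, against 0.636% of genes, with 0 at an unadjusted p under 0.05. With the replicate block 2 members fell with NEO2734, against 8.37% of genes: NFKBIE at -0.96 (adjusted p = 0.0071) and TNFAIP3 at -0.98 (adjusted p = 0.0239). With the depth term within each line the same 2 fell with NEO2734, at -0.95 (adjusted p = 0.000709) and -1.04 (adjusted p = 0.00298), against 12.1% of genes. With OTX015 TNFAIP3 alone fell, at -0.97 (adjusted p = 0.0118), against 4.52% of genes. NFKBIE and TNFAIP3 did not pass the F-test for a difference between lines (adjusted p = 0.12 and 0.103 for NEO2734 with the depth term within each line).

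The mean level of NFKBIZ was above vehicle with both compounds in DOHH2 and below it in TMD8. In DOHH2 it had 118, 311 and 276 CPM with NEO2734 and 95.2, 256 and 282 CPM with OTX015, against 74.4, 136 and 153 CPM with DMSO. In TMD8 it had 268, 142 and 201 CPM with NEO2734 and 215, 151 and 216 CPM with OTX015, against 309, 216 and 462 CPM with DMSO. The ranges overlapped in both lines. With NEO2734 the log2 fold changes were 0.96 ± 0.43 in DOHH2 and -0.69 ± 0.43 in TMD8, neither called (adjusted p = 0.251 and 0.573), and the F-test with the depth term within each line gave an adjusted p of 0.252.

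**Figure D4:**
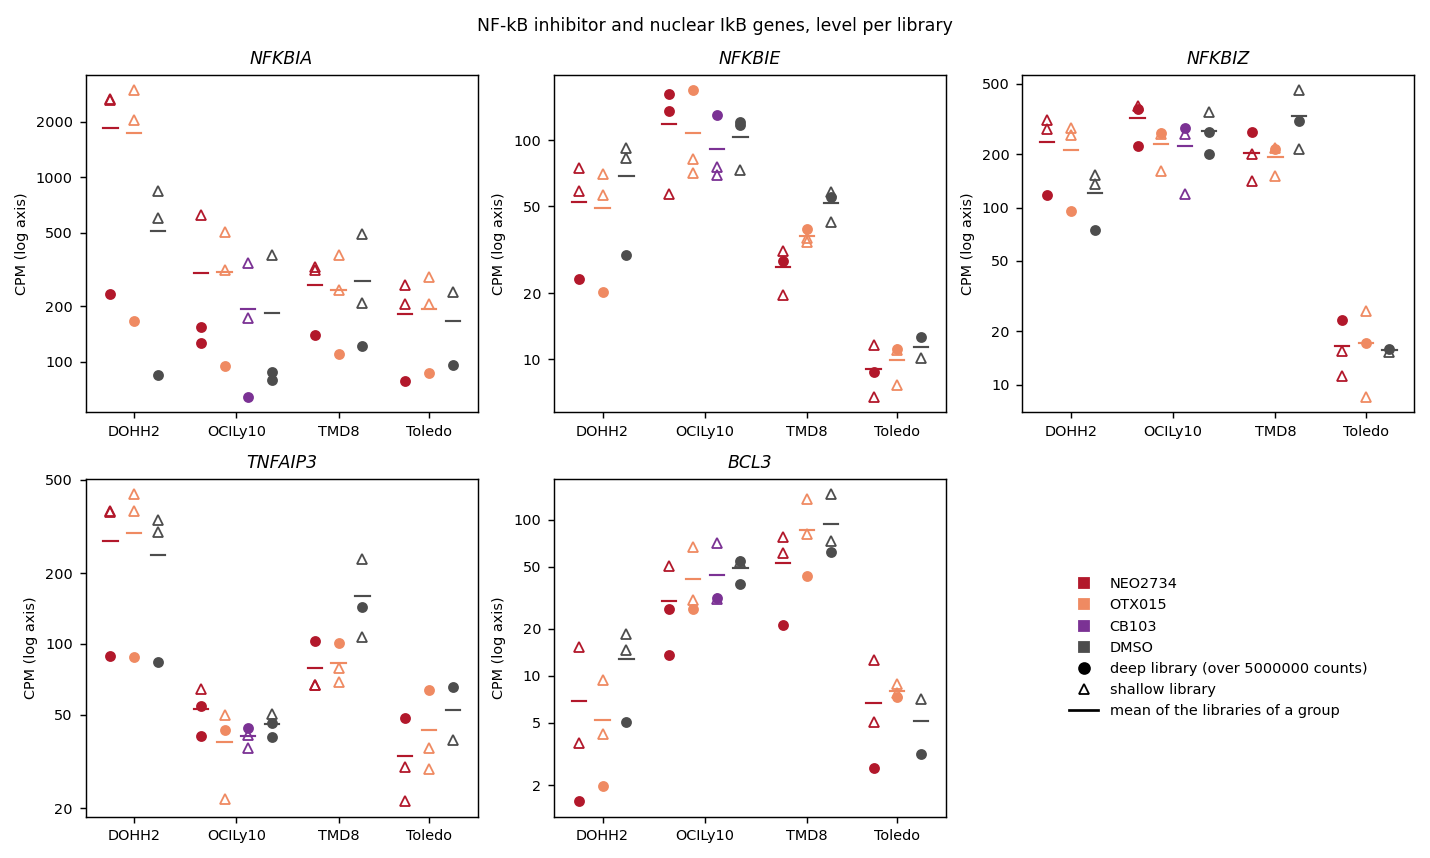
Level of the inhibitor genes NFKBIA, NFKBIE and TNFAIP3 and the nuclear IkB genes NFKBIZ and BCL3 in each library, in CPM on a log axis, by line and treatment, with deep libraries filled and shallow ones open. In TMD8 the NFKBIE and TNFAIP3 libraries with NEO2734 (19.7 to 31.4 and 66.6 to 103 CPM) and OTX015 lie below those with DMSO (42.3 to 57.9 and 107 to 230 CPM).

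The mean level of BCL3 was lower with NEO2734 than with DMSO in 3 lines, with ranges that overlapped. In OCILy10 it had 13.6, 26.9 and 50.7 CPM with NEO2734 and 26.8, 30.8 and 67.3 CPM with OTX015, against 38.8, 54.2 and 53.4 CPM with DMSO. In TMD8 it had 21.1, 77.1 and 61.4 CPM with NEO2734 and 43.4, 136 and 80.5 CPM with OTX015, against 62.6, 73.1 and 146 CPM with DMSO. DOHH2 held few BCL3 counts, with 13, 6 and 29 reads in the NEO2734 libraries and 45, 24 and 29 in the DMSO libraries. The log2 fold change for the mean of the lines was -0.49 ± 0.38 with NEO2734 (adjusted p = 0.449) and -0.22 ± 0.38 with OTX015 (adjusted p = 0.867). Adding depth as a term, NEO2734 gave -0.69 ± 0.26 (adjusted p = 0.0393). The deep libraries alone gave -1.28 (adjusted p = 0.00548), and the shallow ones alone did not call it. Within deep libraries NEO2734 was 0.435-fold the vehicle level in OCILy10, 0.3375-fold in TMD8, 0.308-fold in DOHH2 and 0.817-fold in Toledo. Within shallow ones it was 0.949-fold in OCILy10, 0.633-fold in TMD8, 0.57-fold in DOHH2 and 1.24-fold in Toledo, with 1 or 2 libraries on each side. In Toledo the level was higher, at 7.33, 7.82 and 8.95 CPM with OTX015, against 3.16 and 7.145 CPM with DMSO, a separation that rests on 20 and 7 reads in the vehicle libraries.

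With depth as a term, 3 members were called for the mean effect of NEO2734, REL and NFKBIA (0.57 ± 0.22, adjusted p = 0.0469) as higher and BCL3 as lower, against 30.4% of genes, and 0 for OTX015 against 18.5%. With the term within each line, 4 were called with NEO2734 against 33.7% of genes, NFKBIE at -0.39 (adjusted p = 0.00295) besides the same 3. With OTX015 2 were called, REL at 0.59 (adjusted p = 0.00282) and NFKBIA at 0.37 (adjusted p = 0.048), against 22.8%. The replicate block called REL (0.60, adjusted p = 0.000259), NFKBIA (0.63, adjusted p = 0.0376) and NFKBIE (-0.37, adjusted p = 0.0231) with NEO2734, against 27.7% of genes, and REL (0.61, adjusted p = 0.000492) with OTX015, against 17.8%. The deep libraries alone called REL, NFKBIA and BCL3 with NEO2734, against 24.4% of genes, and REL with OTX015, against 12.5%. These shares of 1 to 4 in 10 members lie near those of all genes.

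In OCILy10 0 of 10 members were called with NEO2734, against 1.81% of genes, and 0 with OTX015, against 0.197%. In Toledo 0 were called with NEO2734, against 0.681%, and 0 with OTX015, against 0.0151%. None of these 4 comparisons had a member at an unadjusted p under 0.05, and DESeq2 called 0 in each, as it did in TMD8. Groups whose libraries did not overlap were found for 0 members with NEO2734 in DOHH2 (18.1% of genes in either direction), 2 in OCILy10 (19.8%), 2 in TMD8 (17.7%) and 1 in Toledo (23.5%). With OTX015 they were found for 0 members in DOHH2 (13.4%), 1 in OCILy10 (12.7%), 2 in TMD8 (12.7%) and 3 in Toledo (21.8%). These shares of 10 members are near those of all genes.

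**Figure D5:**
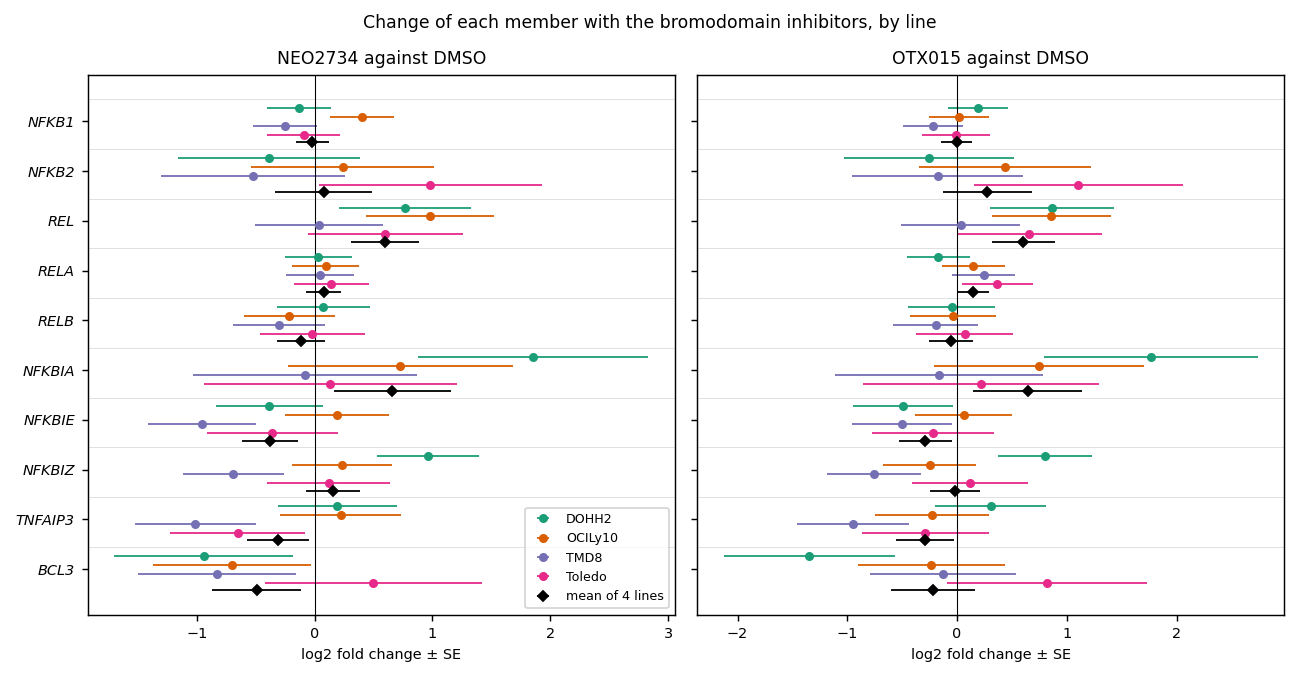
Log2 fold change ± SE of each member with NEO2734 and with OTX015 against DMSO, in each line (coloured circles) and for the mean of the 4 lines (black diamonds), with 0 marked by a vertical line. The DOHH2 points of NFKBIA stand farthest right at 1.86 and 1.77, and the Toledo points of NFKBIA have the widest bars. The TMD8 points of NFKBIE and TNFAIP3 with NEO2734 lie near -1.

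For the types, the NEO2734 effect in OCILy10 and TMD8 minus that in DOHH2 and Toledo was called for 0 members, against 0.0151% of genes, and 0 had an unadjusted p under 0.05. For OTX015 it was called for 0 members, against 0% of genes, with NFKBIZ at an unadjusted p of 0.0432 and a difference of -0.97 ± 0.46. DESeq2 called 0 in both.

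CB103 was used only in OCILy10. It called 0 of 10 members, against 0% of genes, with 0 at an unadjusted p under 0.05 and 0 by DESeq2. NFKBIA had 64.3, 174 and 344 CPM with CB103, against 88.1, 79.2 and 382 CPM with DMSO, and REL had 71.6, 49.4 and 119.7 CPM, against 49.5, 78.5 and 105 CPM. The groups overlapped for all 10 members. The log2 fold changes ran between -0.29 ± 0.43 for NFKBIZ and 0.09 ± 0.79 for NFKB2, and without the CB103 library that held Toledo RNA NFKBIA gave 0.15 in place of 0.08. CB103 had 1 deep and 2 shallow libraries, and DMSO 2 deep and 1 shallow. Within deep libraries NFKBIA with CB103 was 0.77-fold the vehicle level and within shallow ones 0.68-fold, the opposite direction to the value over all libraries.

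The other genes of the pathway were read through a list of 57 tested genes upstream of the factors (receptors, adaptors, kinases and regulators) and a list of 51 tested target genes. With NEO2734, 6 upstream genes rose and 9 fell for the mean of the lines (26.3%, against 18.7% of all genes), with a median log2 fold change of -0.03 against 0.01 over all genes. MYD88, the Toll-like receptor adaptor that carries activating mutations in some lymphomas, fell by 0.69 on the log2 scale (adjusted p = 3.61e-05). IRAK1, the kinase downstream of it, fell by 0.995 (adjusted p = 0.000172), and BTK, a kinase of the B cell receptor pathway, fell by 0.74 (adjusted p = 0.00104). IKBKE, a kinase related to the IkB kinases, fell by 1.35 (adjusted p = 0.000342), and TNFRSF13C, the BAFF receptor of the noncanonical pathway, fell by 0.98 (adjusted p = 0.000134). In Toledo TNFRSF13C averaged 28.1 CPM with NEO2734 and 26.4 CPM with DMSO, so its fall rested on the other lines. TAB3, an adaptor of the kinase TAK1, rose by 0.55 (adjusted p = 0.00119), MAP3K7, which encodes TAK1, by 0.34 (adjusted p = 0.00548), and RIPK1 by 0.48 (adjusted p = 0.00628). RNF11 and OTUD7B, both known as negative regulators, rose by 0.48 and 0.75 (adjusted p = 0.00613 and 0.0152).

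Of the 51 target genes, 4 rose and 14 fell with NEO2734 (35.3%, against 18.7% of all genes), with a median of -0.33, or -0.32 without the 10 genes that had a group at 0 counts. IL2RA, the alpha chain of the interleukin-2 receptor, fell by 3.27 (adjusted p = 0.000284) at means of 0.57 CPM with NEO2734 and 4.70 CPM with DMSO in OCILy10. CXCL10, a chemokine, fell by 2.66 (adjusted p = 0.000644), at 5.08 CPM with NEO2734 and 120 CPM with DMSO in TMD8. MYB fell by 1.88 (adjusted p = 2.47e-06) and the costimulatory ligand CD80 fell by 1.77 (adjusted p = 6.54e-05). LTB was also called lower (adjusted p = 0.00249), with 0 counts in the DOHH2 NEO2734 group, so its fold is not given. The immediate early genes IER2 and IER3 rose by 0.73 and 1.29 (adjusted p = 0.00731 and 0.00752) and GADD45B by 0.91 (adjusted p = 0.0446). IER3 had only 5, 24 and 13 vehicle reads in DOHH2, OCILy10 and Toledo. In TMD8 IER3 averaged 11 CPM with NEO2734 and 9.21 CPM with DMSO, and IER2 averaged 17 and 18.3 CPM. GADD45B averaged 66.5 and 61 CPM in TMD8, against 94 and 32.1 CPM in DOHH2, 52.6 and 38.1 CPM in OCILy10 and 20.1 and 7.51 CPM in Toledo. Its Toledo vehicle level came from 46 reads. CCL4 was called higher (adjusted p = 0.0123), with 0 counts in the Toledo DMSO group.

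With OTX015, 2 upstream genes rose and 5 fell (12.3%, median 0.01), and 2 target genes rose and 7 fell (17.6%, median -0.32, or -0.21 without those 10), against 9.64% of all genes, so the upstream share lay near the background. TAB3 and RIPK1 rose by 0.46 and 0.39 (adjusted p = 0.0115 and 0.0428), and MYD88 fell by 0.61 (adjusted p = 0.000453). IKBKE, IRAK1, TNFRSF13C and NKRF, a repressor of NF-kB targets, fell, with log2 fold changes of -1.05, -0.65, -0.54 and -0.37 (adjusted p = 0.00785, 0.0181, 0.0419 and 0.0301). Among targets IER2 and IER3 rose by 0.65 and 1.15 (adjusted p = 0.0277 and 0.0321), IER3 against the same few vehicle reads. CD80, MYB, IL2RA and CXCL10 fell, with log2 fold changes of -1.53, -1.14, -2.73 and -2.64 (adjusted p = 0.000981, 0.00222, 0.00306 and 0.00327), and LTB was called lower (adjusted p = 0.0223). Between NEO2734 and OTX015, 0 of 57 upstream and 0 of 51 target genes were called, with 2 and 3 at an unadjusted p under 0.05.

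Within lines the target list was lowest in TMD8, where 0 rose and 7 fell with NEO2734 (13.7%, against 2.82% of all genes, median -1.02 against 0.00) and 0 rose and 2 fell with OTX015 (3.92%, against 0.636% of all genes, median -0.79). In DOHH2, 5 targets rose and 2 fell with NEO2734 (13.7%, against 3.86% of all genes, median -0.08). Without the 10 target genes with a group at 0 counts, whose fitted folds are no bound, these medians were -0.95, -0.71 and 0.03, so the sign in DOHH2 rests on them. In OCILy10, 0 rose and 1 fell (1.96%, against 1.81% of all genes, median -0.12), and in Toledo 0 were called. The difference of the list between lines was not tested.

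In the vehicle libraries, 29 of 51 target genes were higher in OCILy10 and TMD8 than in DOHH2 and Toledo and 7 were lower (70.6%, against 33.6% of all genes), with a median log2 fold change of 1.75 against 0.00 over all genes. STAT3 averaged 864 and 309 CPM in OCILy10 and TMD8, against 70.8 and 55.9 CPM in DOHH2 and Toledo (log2 fold change 3.02, adjusted p = 2.18e-10). PIM1, a kinase that is also on the fixed list of activated type markers, had a log2 fold change of 2.65 (adjusted p = 1.11e-11), the phosphatase gene PTPN1 of 2.23 (adjusted p = 9.44e-11) and TNFAIP8 of 1.84 (adjusted p = 2.79e-08). TNF averaged 12.9 and 117 CPM in OCILy10 and TMD8, against 0.24 and 0.16 CPM in DOHH2 and Toledo, which rest on 2 reads each (adjusted p = 4.14e-10). MYB, IRF1 and CD69 were lower, at -3.35, -1.56 and -2.09 (adjusted p = 1.66e-08, 9.03e-07 and 0.000596). TAP1 and TNFAIP2, which had a group at 0 counts, were also called lower, mainly through OCILy10 and DOHH2. TAP1 averaged 0.179 and 82.7 CPM in OCILy10 and TMD8, against 164 and 29.7 CPM in DOHH2 and Toledo. TNFAIP2 averaged 0.096 and 44.4 CPM, against 365 and 2.13 CPM, so TMD8 lay above Toledo for both genes. Of 57 upstream genes 16 were higher and 12 lower (49.1%, against the same 33.6%, median 0.08). The tumour necrosis factor receptor TNFRSF1B averaged 234 and 111 CPM in OCILy10 and TMD8, against 166 and 2.2 CPM in DOHH2 and Toledo. Its log2 fold change of 3.04 (adjusted p = 6.23e-08) thus rested on Toledo, and DOHH2 lay above TMD8. The phospholipase gene PLCG2 had a log2 fold change of 1.37 (adjusted p = 6.96e-06), TRAF5 of 3.16 (adjusted p = 9.01e-06) and RIPK1 of 1.08 (adjusted p = 2.85e-05). TRAF5 averaged 24.8 and 24.1 CPM in OCILy10 and TMD8, against 0.71 CPM in DOHH2, from 5 reads, and 13.3 CPM in Toledo. Its fold thus rested mainly on DOHH2. TNIP3 was called higher with 0 counts in the DOHH2 vehicle libraries (adjusted p = 1.93e-06). BIRC2 and IRAK1 were lower, at -0.81 and -1.54 (adjusted p = 1.16e-05 and 2.45e-05). BIRC2 averaged 44 and 34.5 CPM in OCILy10 and TMD8, against 48.2 and 96.9 CPM in DOHH2 and Toledo, so its value rested mainly on Toledo. IKBKB and ITCH were called lower as well, at -0.86 and -0.55 (adjusted p = 0.00187 and 0.00228), mainly through OCILy10: IKBKB averaged 23.7 and 69.7 CPM in OCILy10 and TMD8, against 73 and 75 CPM in DOHH2 and Toledo, and ITCH 77.9 and 138 CPM, against 138 and 166 CPM. IRAK2 was lower, at 0.61 and 0.07 CPM in OCILy10 and TMD8, against 2.11 and 6.25 CPM in DOHH2 and Toledo (adjusted p = 6.28e-05).

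The genes whose mean log2 CPM over the 13 groups was most like a member's were named for 3 members. For NFKBIA these were TNFSF9, AMPD1 and TFPI2 (Pearson r of 0.953, 0.948 and 0.93), for NFKB2 they were BAP1, CES2 and TAPBP (0.962, 0.953 and 0.952), and for RELB they were TMEM119, SLC16A14 and LRRN3 (0.981, 0.98 and 0.979). The 13 groups share lines and depth, so these values describe the groups.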

How the data were processed

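The authors deposited whole-number counts per gene for 39 libraries in 2 tables over 15808 Ensembl IDs, and the table named as raw was used. Both hold unnormalised counts, with 38 of 39 columns equal; OCILy10 CB103 replicate 1 totals 11430777 in one and 5474462 in the other. Per the submitters' processing notes, STAR, edgeR and hg38 were used. Their versions, the counting program and the annotation used for counting were not given in the sources used here. Protocol text shared by all samples names other compounds and a further time point; each sample's own label was followed. Symbols matched 14179 IDs, and 0 columns were left unmapped.

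Counts were fitted in R 4.3.3 with edgeR 4.0.16 (limma 3.58.1), with TMM scaling, the filterByExpr filter and 1 coefficient per group for 13 groups, which left 25 residual degrees of freedom. Quasi-likelihood tests gave p-values adjusted by the Benjamini-Hochberg method over 13212 genes, and genes under 0.05 were called. Levels are CPM scaled by TMM. Deep libraries are those over 5000000 counts. The script was tested on simulated counts. DESeq2 1.42.0 was an alternative, with scaling, filter, depth, block, table and left-out libraries. Same-numbered libraries had positively correlated deviations in DOHH2 (0.191 to 0.91) and TMD8 (0.27 to 0.91). Replicate 1 was the deep library of every group there, so these correlations cannot tell pairing from depth. From each pathway list, up to 5 called genes per direction with the lowest p and at least 5 CPM in a group were named. Private genes had over 10 CPM in every library of their line and under 1 CPM in most libraries of the other lines, among 36 libraries. The members and lists were chosen with earlier results of these data known. Of the lists, LTBR, SOD2, TNFRSF4, LRMP and several T cell and monocyte markers matched no row of the count table by symbol and were not analysed here. Counts and shares cover counting error only.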

Additional observations from a re-analysis of the deposited data

Results flagged for a closer look

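The effect of NEO2734 on NFKBIA differed between the 4 lines in an F-test with a depth term within each line (adjusted p = 0.0213, edgeR quasi-likelihood test over 13212 genes). The fitted log2 fold changes in that fit were 1.72 ± 0.26 in DOHH2, 0.74 ± 0.26 in OCILy10, -0.02 ± 0.26 in TMD8 and -0.15 ± 0.30 in Toledo. The depth term was added after the values were seen. With a single depth term the adjusted p was 0.358, and without one it was 1. One of the 3 DOHH2 NEO2734 libraries held some OCILy10 RNA, and its NFKBIA level (2661 CPM) lay beside that of the other shallow library of the group (2648 CPM).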

How the results depend on the processing

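Of 7240 values of members recomputed under 50 settings, 0 called values reversed. The call and direction were kept in 6855, 344 values below the threshold changed sign, 40 became called and 1 lost its call. Against 0 members called with NEO2734 for the mean of the lines, 3 were called with the replicate block, 3 with a depth term, 4 with a depth term within each line and 3 in deep libraries alone. For OTX015 these were 1 with the block, 2 with depth within lines and 1 in deep libraries. With NEO2734 in DOHH2 the block gave 3, and the depth term, depth within lines and shallow libraries alone gave 1 each. In OCILy10 the block and depth within lines gave 1 each, and in TMD8 2 each. With OTX015 in DOHH2 the block, the depth term and depth within lines gave 1 each. In OCILy10 the block gave 1, and in TMD8 depth within lines gave 1. Between the types, 7 were called with depth within lines and 6 with the block against 4. The share of all genes called rose in the same settings, for NEO2734 to 27.7% with the block, 30.4% with a depth term, 33.7% with depth within lines and 24.4% in deep libraries, against 18.7%. The causes were not tested. Leaving out each library in turn kept 0 called in every comparison with a compound and gave 4 to 5 between the types, the fifth being RELA without OCILy10 OTX015 replicate 2 (-0.49, adjusted p = 0.0362). Same-numbered deviations correlated between -0.612 and 0.897 in OCILy10 and between -0.817 and 0.761 in Toledo. Deep libraries did not carry the same replicate numbers in all groups of these lines. Pairing is thus not shown there, and in DOHH2 and TMD8 it cannot be told apart from depth. In Toledo, same-numbered DMSO and NEO2734 libraries differed in depth and correlated at -0.582 and -0.817. DMSO and OTX015 libraries matched in depth and correlated at 0.761 and 0.661. In OCILy10, replicate 2 correlated at -0.612 between DMSO and OTX015, which differed in depth, and at 0.85 between DMSO and NEO2734, which matched. OCILy10 CB103 replicate 2 gave 0.152 with DMSO, of other depth, and -0.059 with OTX015, of the same depth. Under the replicate block REL in OCILy10 had 1.01 (adjusted p = 0.00266) with NEO2734 and 0.90 (adjusted p = 0.013) with OTX015. Among pathway genes, 5 upstream and 7 target genes were lower with OTX015, against 9 and 12 with a depth term, 9 and 13 with the block, 7 and 15 with all 39 libraries, 6 and 11 in deep and 3 and 5 in shallow libraries; over all genes 4.68% were lower with OTX015, against 9.36%, 9.19%, 6.06%, 6.95% and 2.46% in the same order. With NEO2734, 9 upstream genes were lower, against 14 with a depth term or the block, and 14 target genes, against 7 in shallow libraries. Over all genes 9.48% were lower with NEO2734, against 15.4% with a depth term, 13.9% with the block and 6.72% in shallow libraries. In deep libraries alone, line and treatment terms gave the mean contrasts only. Depth limits BCL3, with 6 to 58 reads per library in Toledo and DOHH2.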
